A study of Mus musculus with 12 samples.

Results

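The genes described here are the Wnt ligands, the Frizzled receptors and the secreted Dkk and Sfrp inhibitors of the mouse, taken by gene symbol from the array's probe sets, which hold 1 set per Entrez gene. The matching used the names alone and no measured value, but the families were chosen with earlier results of these data known. It gave 38 of 27381 probe sets, which were 19 Wnt ligands, 10 Frizzled receptors, 5 genes of the Dkk family (Dkk1 to Dkk4 and Dkkl1) and 4 of the Sfrp family (Sfrp1, Sfrp2, Sfrp4 and Sfrp5). RNA from the hippocampus (HC) and the anterior cingulate cortex (ACC) of mice was measured on whole-transcript microarrays in 4 groups of 3 arrays, which were HC trained, HC control, ACC trained and ACC control. All mice were of strain C57B16/J, 8 to 12 weeks old at surgery, and were held by a bar fixed to the skull and deprived of water, in the control groups as in the trained ones. Trained mice learned to run in the direction that a visual cue called for to earn water, and control mice saw the cues and received water at random intervals. The paper trained mice in pairs of same-sex littermates, a trained with a control mouse. The main fit below did not use these pairs. Reaching the criterion took 27 ± 2.6 days. The labels give pools of 7 mice for HC and 5 for ACC, both sexes were in the study, and its methods do not state the size of the pools in the repeat. In every group, pools 1 and 2 belong to the first run of the experiment (batch 1) and pool 3 to its repeat (batch 2). A pool averages its mice, so the p-values below measure the spread between pools.

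Wnt proteins are secreted lipid-modified ligands that bind Frizzled receptors on the cell surface. With the co-receptors Lrp5 and Lrp6, a bound Frizzled acts through Dishevelled to spare β-catenin from destruction, and β-catenin then works with TCF and LEF factors at target genes. Other Wnt signals run without β-catenin, through Ror and Ryk receptors or through planar cell polarity proteins. Dkk1 blocks the pathway by occupying Lrp5 and Lrp6, and Sfrp proteins carry a Frizzled-like domain that binds Wnts outside the cell. In the brain the pathway patterns the embryonic cortex and hippocampus, and in adults it acts at synapses and in the birth of new dentate neurons.

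Values are log2 expression, so that each unit is a factor of 2. A probe set's own affinity enters its value, and values are therefore compared between groups for 1 gene and not between genes. The background was set at 2.76, the 95th percentile of 1365 probe sets for odorant and vomeronasal receptors, genes that brain tissue scarcely uses. Of the 38 genes, 26 averaged above this level over the 12 arrays, namely 13 of 19 Wnt ligands, 8 of 10 Frizzled receptors, 3 of 5 Dkk genes and 2 of 4 Sfrp genes. The 12 genes at or below it were Wnt1, Wnt3a, Wnt8a, Wnt8b, Wnt10b, Wnt16, Fzd8, Fzd10, Dkk1, Dkk4, Sfrp4 and Sfrp5. Small differences in these dim genes rest on signal that cannot be told apart from background. SDs within a group of 3 pools ran between 0.02 and 0.55 over the 38 genes, with a median of 0.11.

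HC and ACC differed in 14 of the 38 genes at an adjusted p under 0.05 (limma, 4 group means, Benjamini-Hochberg over all 27381 probe sets). The 9 lower in HC were Dkkl1, Wnt9a, Wnt10a, Wnt4, Dkk3, Fzd3, Fzd1, Wnt8a and Dkk1. The 5 higher in HC were Fzd7, Fzd4, Wnt7a, Wnt3 and Wnt5a. The 9 lower genes are 23.7% of the 38, beside 8.74% of all probe sets, and the 5 higher genes are 13.2%, beside 9.71% of all probe sets. The median difference (HC minus ACC) was -0.03 over the 38 genes and -0.01 over all probe sets. By family, 4 Wnt ligands were lower and 3 higher, 2 Frizzled receptors were lower and 2 higher, 3 of the 5 Dkk genes were lower, and no Sfrp gene passed the test. The 6 HC arrays did not overlap the 6 ACC arrays in 7 lower genes (5.09% of all probe sets) and 2 higher genes (5.99% of all probe sets).

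**Figure D1:**
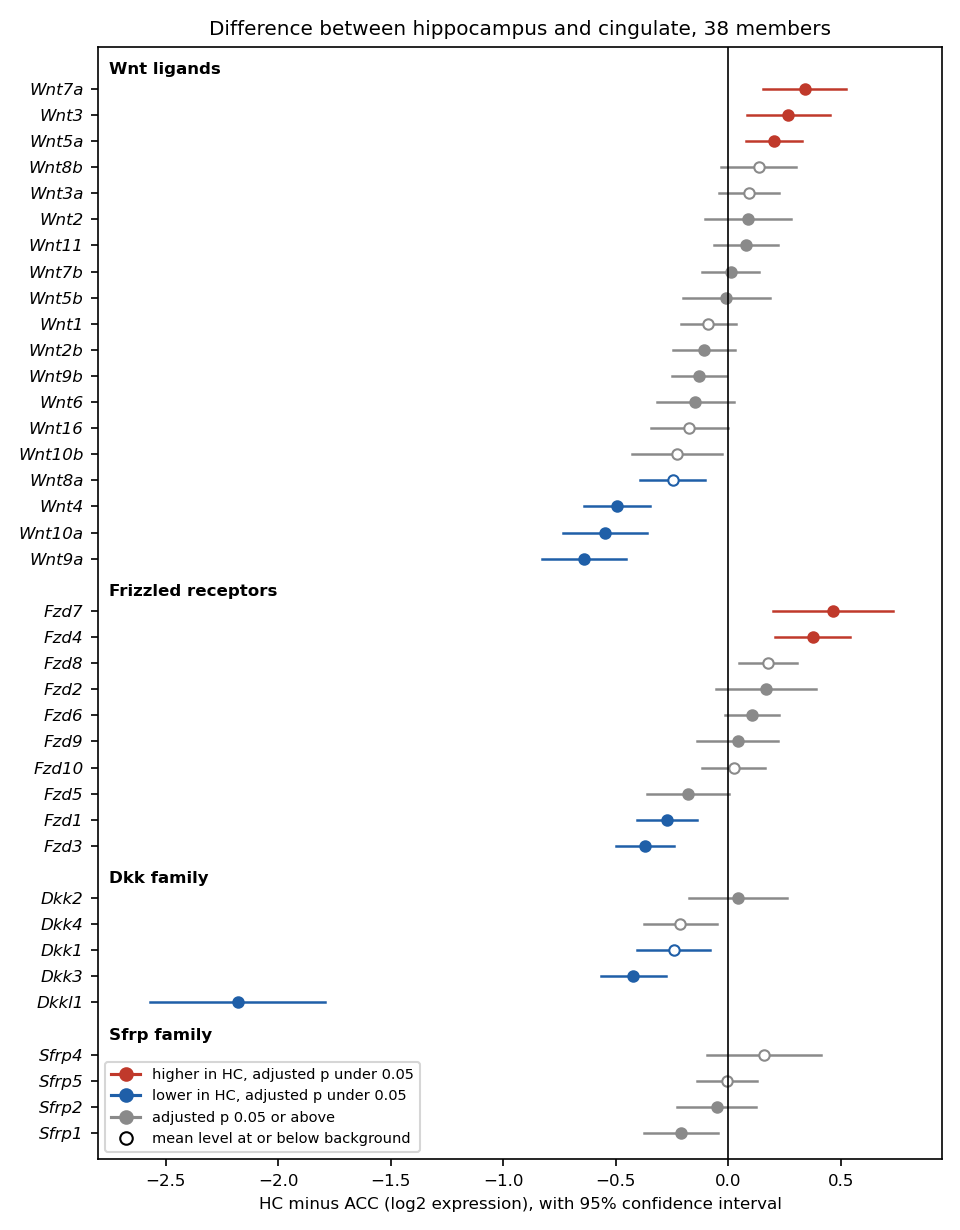
Difference between HC and ACC (HC minus ACC, log2 expression, x axis) for the 38 genes, grouped by family down the page. Points are the limma estimates over 6 arrays per region and lines their 95% confidence intervals. Dkkl1 stands at -2.18, and the other genes lie between -0.64 (Wnt9a) and 0.47 (Fzd7).

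The promoters of 4 genes with large differences are shown first, 3 lower in HC (Dkkl1, Wnt9a and Wnt4) and 1 higher in HC (Fzd7). Each is the RefSeq window on GRCm38.p6 that runs 250 bases before to 50 bases after the annotated start, written 5′ to 3′ on the gene's strand, with every CG dinucleotide in capitals. The windows are chr7:45211834-45212133 on the minus strand for Dkkl1, and chr11:59306680-59306979, chr4:137277385-137277684 and chr1:59481897-59482196, all on the plus strand, for Wnt9a, Wnt4 and Fzd7.
Dkkl1: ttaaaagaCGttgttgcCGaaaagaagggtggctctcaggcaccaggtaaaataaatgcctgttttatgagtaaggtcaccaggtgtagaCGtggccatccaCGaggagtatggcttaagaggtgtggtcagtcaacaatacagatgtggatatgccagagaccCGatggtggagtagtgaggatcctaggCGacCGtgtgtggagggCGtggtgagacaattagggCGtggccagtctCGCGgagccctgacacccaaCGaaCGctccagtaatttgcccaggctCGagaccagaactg
Wnt9a: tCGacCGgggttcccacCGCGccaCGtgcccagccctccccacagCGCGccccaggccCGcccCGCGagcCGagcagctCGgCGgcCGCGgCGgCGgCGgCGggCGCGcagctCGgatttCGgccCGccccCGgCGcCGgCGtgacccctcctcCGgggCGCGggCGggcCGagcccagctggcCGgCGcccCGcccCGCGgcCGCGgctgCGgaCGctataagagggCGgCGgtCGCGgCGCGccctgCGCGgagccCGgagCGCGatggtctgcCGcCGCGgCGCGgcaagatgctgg
Wnt4: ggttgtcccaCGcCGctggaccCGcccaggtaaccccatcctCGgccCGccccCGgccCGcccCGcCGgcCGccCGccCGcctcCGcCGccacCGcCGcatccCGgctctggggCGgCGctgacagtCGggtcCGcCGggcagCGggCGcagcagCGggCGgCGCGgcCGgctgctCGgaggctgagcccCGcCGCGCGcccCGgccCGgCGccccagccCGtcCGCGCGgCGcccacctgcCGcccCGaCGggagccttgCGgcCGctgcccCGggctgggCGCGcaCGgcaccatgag
Fzd7: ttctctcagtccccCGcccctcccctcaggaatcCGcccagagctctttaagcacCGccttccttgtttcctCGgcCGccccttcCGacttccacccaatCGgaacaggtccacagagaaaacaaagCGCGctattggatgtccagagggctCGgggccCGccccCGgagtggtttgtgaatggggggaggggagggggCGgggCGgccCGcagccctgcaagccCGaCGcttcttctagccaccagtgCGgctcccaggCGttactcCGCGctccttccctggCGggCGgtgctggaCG
The Dkkl1 window held 14 CG dinucleotides and 53% G and C, the Wnt9a window 58 and 83.3%, the Wnt4 window 51 and 84.3%, and the Fzd7 window 24 and 66.7%. Windows were at hand for 26 of the 38 genes (29 windows, since Wnt5b and Wnt11 have several starts). Their median was 26 CG dinucleotides and 66.7% G and C, against 7 and 52.7% over all 32851 mouse windows. The 4 windows of genes higher in HC held 24 to 42 CG dinucleotides and the 5 windows of genes lower in HC held 9 to 58, so that the ranges overlap. The word CTTTG followed by 2 bases that are each A or T, which TCF and LEF factors bind, was searched on both strands and stood in 17.2% of the 29 windows, against 16.9% of all windows. Fzd7 carried 1 such word on the reverse strand, and none lay in the other 3 windows printed. The TATA word TATAAA, searched on both strands, stood in 13.8% of the 29 windows and in 13.6% of all windows. A matching word describes the letters alone.

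The Dkk family held the largest difference. Dkkl1 (Entrez 50722, chromosome 7) codes for a secreted relative of Dkk3 that is best known from developing sperm. Dkkl1 had log2 values of 3.63, 3.36 and 4.02 in the HC trained pools and 3.40, 3.97 and 3.80 in the HC control pools, against 6.03, 6.35 and 5.28 in the ACC trained pools and 5.85, 6.15 and 5.61 in the ACC control pools. All 6 HC arrays lay below all 6 ACC arrays, with a gap of more than 1 log2 unit between them. Dkkl1 was lower in HC by 2.18 (SE 0.18, limma adjusted p = 2.36e-06), which makes the ACC level 4.53 times that in HC. In each region the batch 2 pool of trained mice stood at an end of the values, high in HC and low in ACC, and the difference was -2.51 within batch 1 and -1.53 within batch 2.

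Dkk3 (Entrez 50781), a secreted protein that neurons make and that lacks the strong Lrp6 binding of Dkk1, showed a smaller and very even difference. Dkk3 had log2 values of 8.62, 8.55 and 8.68 in the HC trained pools and 8.50, 8.69 and 8.55 in the HC control pools, against 8.89, 9.11 and 9.13 in the ACC trained pools and 8.88, 9.13 and 8.98 in the ACC control pools. The regions did not overlap, and Dkk3 was lower in HC by 0.42 (SE 0.07, limma adjusted p = 0.000602), at -0.43 in trained pools and -0.41 in control pools. Dkk1 itself, the canonical Lrp5 and Lrp6 blocker, was dim. Dkk1 had log2 values of 2.34, 2.65 and 2.32 in the HC trained pools and 2.35, 2.44 and 2.30 in the HC control pools, against 2.63, 2.74 and 2.62 in the ACC trained pools and 2.53, 2.52 and 2.81 in the ACC control pools. Its difference of -0.24 (SE 0.07, limma adjusted p = 0.0393) came from values below or near background, the regions overlapped, and the call was kept only without ACC control pool 1, ACC control pool 2, HC control pool 2 or HC trained pool 2. Leaving out any of the other 8 arrays gave an adjusted p up to 0.0956 (limma), and with batch as a block the adjusted p of Dkk1 was 0.0593 (limma). Dkk2 (difference 0.04) and the dim Dkk4 (difference -0.21, limma adjusted p = 0.0687) did not pass.

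Among the ligands, Wnt9a, Wnt10a and Wnt4 were lower in HC. Wnt9a (Entrez 216795, chromosome 11), known from joint formation, had the largest difference of any Wnt. Wnt9a had log2 values of 4.17, 3.94 and 4.08 in the HC trained pools and 3.92, 4.13 and 3.98 in the HC control pools, against 4.54, 4.72 and 4.64 in the ACC trained pools and 4.47, 5.00 and 4.69 in the ACC control pools. Every HC array lay below every ACC array, and the difference was -0.64 (SE 0.09, limma adjusted p = 0.000159). It was nearly the same in the batches, at -0.64 in batch 1 and -0.63 in batch 2.

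Wnt10a (Entrez 22409, chromosome 1), a β-catenin ligand of teeth and skin, was lower in HC by 0.55 (SE 0.09, limma adjusted p = 0.000567). Wnt10a read 4.69, 4.52 and 4.53 in the HC trained pools and 4.34, 4.53 and 4.80 in the HC control pools, against 5.03, 5.00 and 4.88 in the ACC trained pools and 5.34, 5.39 and 5.05 in the ACC control pools. The ACC control pools were the highest, and the regions did not overlap. The difference was -0.71 among control pools (adjusted p = 0.0021, limma) and -0.39 among trained pools (adjusted p = 0.0684, limma). Wnt4 (Entrez 22417, chromosome 4), a ligand of kidney and ovary development, was lower in HC by 0.49 (SE 0.07, limma adjusted p = 0.000194). Wnt4 read 4.43, 4.28 and 4.33 in the HC trained pools and 4.62, 4.67 and 4.38 in the HC control pools, against 4.97, 5.10 and 5.01 in the ACC trained pools and 4.72, 4.92 and 4.96 in the ACC control pools. Here the HC trained pools were the lowest and the ACC trained pools the highest. The difference was therefore -0.68 among trained pools (limma adjusted p = 0.00053) and -0.31 among control pools (limma adjusted p = 0.051). Wnt8a, a ligand of the early embryo, was dim and lower in HC by 0.25 (SE 0.07, limma adjusted p = 0.0207). Wnt8a read 2.59, 2.45 and 2.43 in the HC trained pools and 2.22, 2.29 and 2.22 in the HC control pools, against 2.72, 2.44 and 2.50 in the ACC trained pools and 2.72, 2.52 and 2.78 in the ACC control pools. The HC trained pools overlapped the ACC pools, and the HC control pools lay below them. The difference was -0.43 among control pools and -0.07 among trained pools, and without ACC control pool 3 or without HC trained pool 3 the call was lost (adjusted p up to 0.0545, limma).

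Wnt7a, Wnt3 and Wnt5a were higher in HC. Wnt7a (Entrez 22421, chromosome 6), which acts on presynaptic terminals during synapse formation, was higher by 0.34 (SE 0.09, limma adjusted p = 0.0135). Wnt7a read 3.82, 3.81 and 3.79 in the HC trained pools and 3.44, 3.99 and 3.73 in the HC control pools, against 3.18, 3.40 and 3.48 in the ACC trained pools and 3.49, 3.52 and 3.47 in the ACC control pools. Only HC control pool 1 fell within the range of the ACC pools. Wnt3 (Entrez 22415, chromosome 11), a ligand that hippocampal astrocytes release and that promotes adult neurogenesis, was higher by 0.27 (SE 0.08, limma adjusted p = 0.0455). Wnt3 read 3.34, 3.13 and 3.04 in the HC trained pools and 2.89, 2.78 and 2.78 in the HC control pools, against 2.70, 2.78 and 2.66 in the ACC trained pools and 2.86, 2.44 and 2.92 in the ACC control pools. The 3 HC trained pools lay above all other arrays, while the HC control pools overlapped those of ACC. The difference was 0.46 among trained pools (limma adjusted p = 0.0298) and 0.07 among control pools (limma adjusted p = 0.741). With 1 array left out at a time, the call of Wnt3 was kept only without ACC control pool 1, ACC control pool 3 or HC trained pool 3, and the other 9 arrays gave an adjusted p up to 0.108 (limma). With batch as a block the adjusted p of Wnt3 was 0.0667 (limma).

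Wnt5a (Entrez 22418, chromosome 14), the best studied ligand of the Ror receptors, was higher in HC by 0.20 (SE 0.06, limma adjusted p = 0.026). Wnt5a read 3.616, 3.604 and 3.504 in the HC trained pools and 3.40, 3.64 and 3.50 in the HC control pools, against 3.34, 3.37 and 3.38 in the ACC trained pools and 3.38, 3.20 and 3.36 in the ACC control pools. The 6 arrays of each region did not overlap, although the gap between them was narrow. The call was lost without ACC control pool 2, ACC trained pool 1, HC control pool 2, HC trained pool 1 or HC trained pool 2 (adjusted p up to 0.0651, limma). The remaining 12 ligands did not pass, with differences between -0.23 (Wnt10b) and 0.14 (Wnt8b). Wnt7b, at 4.88 ± 0.08 in HC and 4.87 ± 0.08 in ACC (SD, n = 6 each), was well above background and had a difference of 0.01 with a 95% confidence interval of -0.11 to 0.14.

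**Figure D2:**
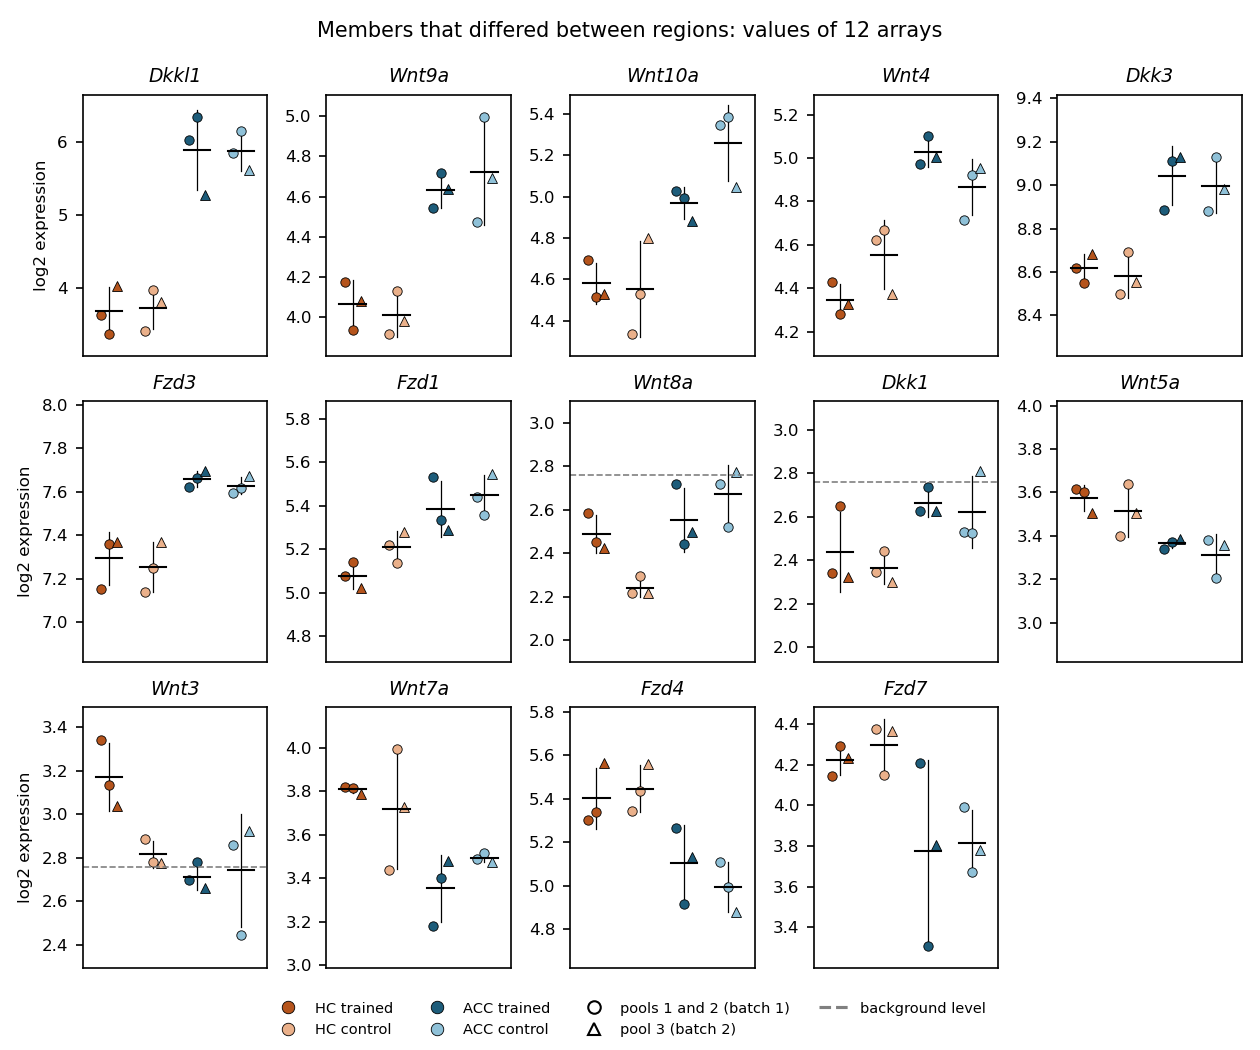
Log2 expression (y axis, scaled for each gene) of the 14 genes that differed between regions in the 12 arrays, with HC trained, HC control, ACC trained and ACC control from left to right. Points are pools (triangles are batch 2), bars are means with SD (n = 3), and the dashed line is the background at 2.76. Dkkl1 separates the regions most widely, and in Wnt3 the 3 HC trained pools stand above all other arrays.

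Frizzled receptors differed in both directions. Fzd7 (Entrez 14369, chromosome 1), a receptor common on stem cells, was higher in HC by 0.47 (SE 0.12, limma adjusted p = 0.0185). Fzd7 read 4.14, 4.29 and 4.23 in the HC trained pools and 4.38, 4.15 and 4.37 in the HC control pools, against 4.21, 3.31 and 3.80 in the ACC trained pools and 3.99, 3.67 and 3.78 in the ACC control pools. The ACC trained pools were the most scattered, with a range of 3.31 to 4.21, and the highest of them fell among the HC pools. The difference of Fzd7 was 0.45 among trained pools (limma adjusted p = 0.151) and 0.48 among control pools (limma adjusted p = 0.0901). Neither contrast passed, each comparing fewer arrays than the main one. Fzd4 (Entrez 14366, chromosome 7), the receptor for Norrin in retinal vessels, was higher in HC by 0.38 (SE 0.08, limma adjusted p = 0.00389). Fzd4 read 5.30, 5.34 and 5.56 in the HC trained pools and 5.34, 5.43 and 5.56 in the HC control pools, against 5.26, 4.92 and 5.13 in the ACC trained pools and 5.11, 4.99 and 4.88 in the ACC control pools. Its regions did not overlap, but the contrast among trained pools did not pass (difference 0.30, limma adjusted p = 0.123).

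Fzd3 (Entrez 14365, chromosome 14), which guides the growth of axon tracts, was lower in HC by 0.37 (SE 0.06, limma adjusted p = 0.000657). Fzd3 read 7.15, 7.36 and 7.37 in the HC trained pools and 7.14, 7.25 and 7.37 in the HC control pools, against 7.62, 7.67 and 7.70 in the ACC trained pools and 7.60, 7.62 and 7.67 in the ACC control pools. The ACC arrays lay close together, between 7.60 and 7.70, and above every HC array. Fzd1 (Entrez 14362, chromosome 5), found at presynaptic sites of hippocampal neurons, was lower in HC by 0.27 (SE 0.06, limma adjusted p = 0.00668). Fzd1 read 5.07, 5.14 and 5.02 in the HC trained pools and 5.22, 5.13 and 5.28 in the HC control pools, against 5.53, 5.33 and 5.29 in the ACC trained pools and 5.44, 5.36 and 5.54 in the ACC control pools. The highest HC array, 5.28, was just under the lowest ACC array, 5.29. Fzd2, Fzd5, Fzd6, Fzd8, Fzd9 and Fzd10 did not pass, with differences between -0.18 (Fzd5) and 0.18 (Fzd8, limma adjusted p = 0.055).

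The Sfrp genes did not pass the test between regions. Sfrp1, a Wnt-binding inhibitor well above background, averaged 5.31 ± 0.19 in HC and 5.52 ± 0.12 in ACC (SD, n = 6 each), a difference of -0.21 (limma adjusted p = 0.0745). That difference was -0.39 among trained pools (limma adjusted p = 0.0375) and -0.03 among control pools (limma adjusted p = 0.889). Sfrp2, Sfrp4 and Sfrp5 had differences between -0.05 and 0.16.

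Close relatives were compared directly, as the gap between 2 genes on each array, in 19 pairs by exact permutation tests of 6 HC against 6 ACC arrays (two-sided, smallest possible p 0.00216), with Benjamini-Hochberg adjustment over the 19. The pairs were 7 pairs of a and b ligands, 8 pairs within Frizzled subfamilies and 4 pairs of neighbours on a chromosome. In 8 of the 19 at least 1 gene was at or below background, and their gaps are not described. Of the other 11, those 4 are given in which the HC arrays did not overlap the ACC arrays. Without overlap a pair has the smallest possible p, so the p-values of these 4 follow from how they were picked. Over all 19 pairs, 14 had an adjusted p under 0.05 (exact permutation). Fzd1 and Fzd7, of 1 Frizzled subfamily, went opposite ways, and the gap Fzd1 minus Fzd7 averaged 0.88 ± 0.07 in HC and 1.622 ± 0.255 in ACC (SD, n = 6 each, exact permutation adjusted p = 0.00685). Fzd3 and Fzd6 also make a subfamily, and their gap was 0.48 smaller in HC (exact permutation adjusted p = 0.00685). Wnt9a and Wnt9b had a gap of 0.57 ± 0.16 in HC and 1.09 ± 0.19 in ACC (SD, n = 6 each, exact permutation adjusted p = 0.00685). Wnt3 and Wnt9b, whose RefSeq annotations overlap on chromosome 11, differed in their gap by 0.40 (exact permutation adjusted p = 0.00685), and whether their probes lie in the shared stretch was not tested. In ACC the mean of Wnt3 was below background. The gap Fzd2 minus Fzd7, which was -0.89 ± 0.20 in HC and -0.59 ± 0.25 in ACC (SD, n = 6 each), did not pass (exact permutation adjusted p = 0.0591). A gap moves when either of its genes does, and how often gaps of unrelated genes differ between the regions was not computed.

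The tissues were checked by their markers. Of the measured markers, 4 of 6 for dentate granule neurons (1 lower) and 5 of 7 for CA pyramidal neurons were higher in HC. Of those for cortical layer neurons, 5 of 6 were lower in HC (limma adjusted p under 0.05). Other cell types moved with region as well. Higher in HC were 6 of 6 oligodendrocyte markers, 4 of 6 oligodendrocyte precursor markers, 5 of 7 astrocyte markers, 6 of 7 ependymal markers, 8 of 9 choroid plexus markers and 4 of 8 fibroblast markers (1 lower). Thalamic markers were higher in 3 and lower in 1 of 7, neuroblast and proliferation markers higher in 2 and lower in 1 of 6, microglial markers higher in 1 of 5, and GABAergic markers lower in 1 of 7. No endothelial marker (of 6) and no sex-linked gene (of 4) passed. The mean log2 value of the choroid plexus list was 4.83 to 5.52 in the HC arrays and 3.50 to 3.67 in the ACC arrays, with HC trained pool 2 the lowest of HC. That of the oligodendrocyte list was 7.78 to 7.87 in HC and 6.72 to 7.53 in ACC, and that of the cortical list 6.56 to 6.81 in HC and 7.41 to 7.57 in ACC. The part of these cell types in the differences of the Wnt genes was not tested, and in bulk tissue fewer cells of a type and less RNA per cell cannot be told apart. Without HC trained pool 2, 12 of the 14 calls were kept, and Wnt3 and Wnt5a were lost.

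For training, none of the 38 genes had an adjusted p under 0.05 in HC, in ACC, in the mean of both or in the difference between the regions (limma). The share of all probe sets called was 0% in each of these comparisons. An unadjusted p under 0.05 was reached by 4 genes in HC (6.82% of all probe sets), 1 in ACC (6.95%), 1 in the mean of both (5.04%) and 5 in the difference between regions (8.86%). Estimates ran between -0.23 (Sfrp1) and 0.36 (Wnt3) in HC and between -0.29 (Wnt10a) and 0.16 (Wnt4) in ACC. Their medians were 0.0024 in HC and -0.00937 in ACC, beside -0.00285 and 0.00185 over all probe sets. The 95% confidence intervals reached from -0.60 (Dkkl1) to 0.62 (Wnt3) in HC and from -0.60 (Sfrp4) to 0.57 (Dkkl1) in ACC.

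**Figure D3:**
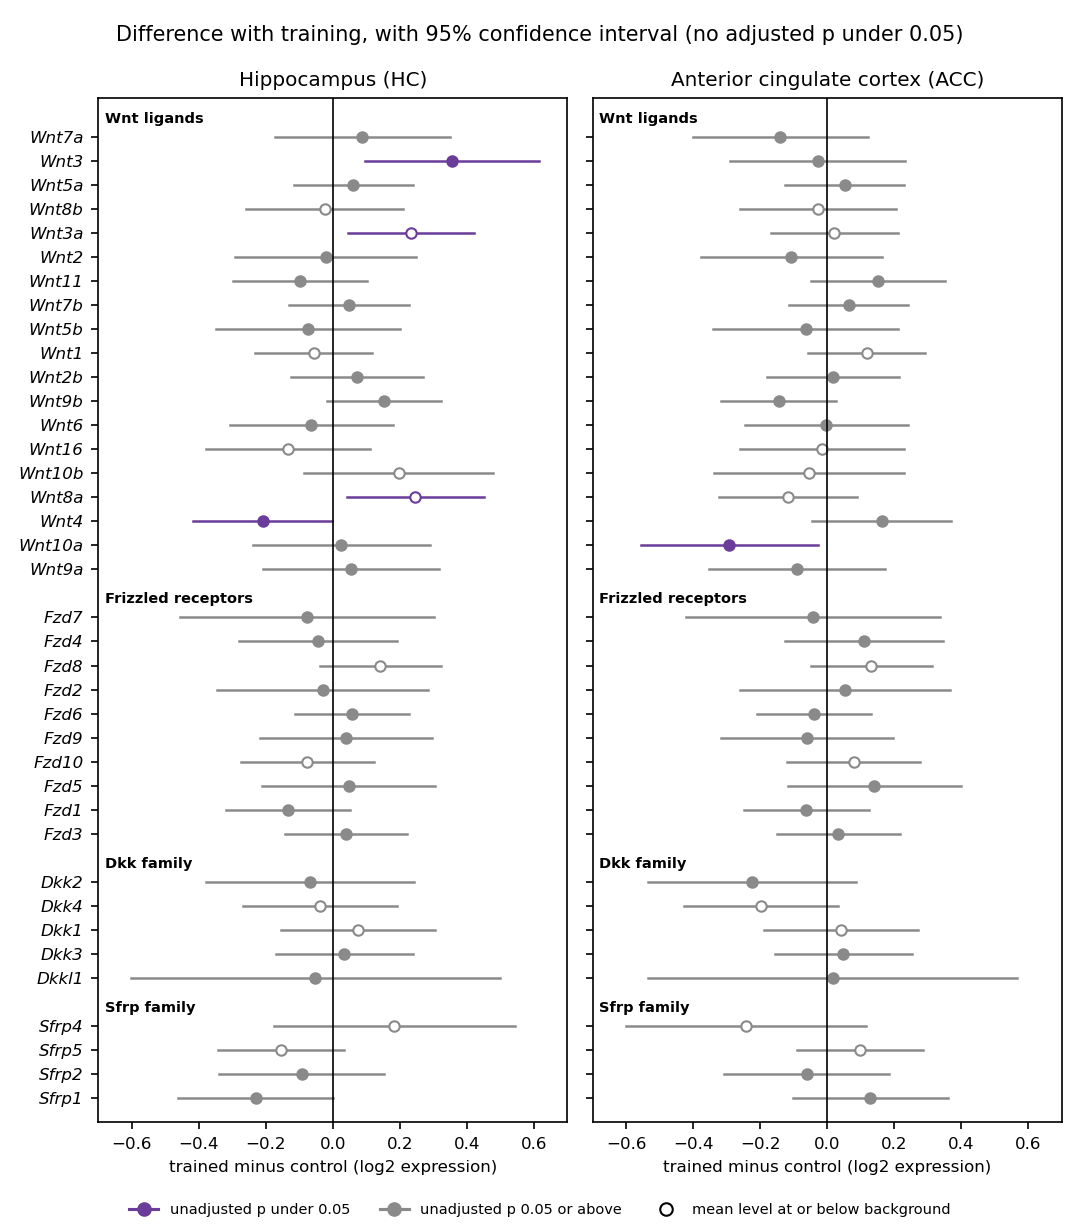
Difference with training (trained minus control, log2 expression, x axis) for the 38 genes in HC and in ACC, with genes in the same order down the page. Points are limma estimates over 3 arrays per group and lines their 95% confidence intervals. Purple marks an unadjusted p under 0.05, which 4 genes reached in HC and 1 in ACC, and no adjusted p was under 0.05.

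The genes with the smallest unadjusted p in HC were Wnt3, Wnt3a, Wnt8a and Wnt4. Wnt3 had log2 values of 3.34, 3.13 and 3.04 in the HC trained pools, against 2.89, 2.78 and 2.78 in the HC control pools. The trained pools all lay above the control pools, and the difference was 0.36 (SE 0.12, unadjusted p = 0.0114, adjusted p = 0.56, limma). It was 0.40 in batch 1 and 0.26 in batch 2. In ACC the difference of Wnt3 was -0.03, at 0.09 in batch 1 and -0.26 in batch 2. The HC control pools of Wnt3 averaged 2.82, near background. Wnt3a had log2 values of 2.27, 2.43 and 2.31 in the HC trained pools, against 2.14, 2.03 and 2.14 in the HC control pools. These groups did not overlap either, with a difference of 0.23 (adjusted p = 0.63, limma), but all values were below background. The same holds for Wnt8a, at 2.59, 2.45 and 2.43 in HC trained pools and 2.22, 2.29 and 2.22 in HC control pools, with a difference of 0.25 (adjusted p = 0.651, limma). Wnt4 had log2 values of 4.43, 4.28 and 4.33 in the HC trained pools, against 4.62, 4.67 and 4.38 in the HC control pools. Wnt4 had a difference of -0.21 in HC (adjusted p = 0.729, limma), and its trained pool 1 overlapped control pool 3.

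In ACC the smallest p-values were those of Wnt10a, Dkk4, Wnt9b and Wnt4. Wnt10a had log2 values of 5.03, 5.00 and 4.88 in the ACC trained pools, against 5.34, 5.39 and 5.05 in the ACC control pools. The trained pools all lay below the control pools, and the difference was -0.29 (SE 0.12, unadjusted p = 0.0325, adjusted p = 0.678, limma), at -0.35 in batch 1 and -0.17 in batch 2. Wnt9b had log2 values of 3.54, 3.55 and 3.46 in the ACC trained pools, against 3.65, 3.62 and 3.72 in the ACC control pools. They did not overlap, and the difference was -0.15 (adjusted p = 0.76, limma). In Wnt4 the estimate was positive here. Wnt4 had log2 values of 4.97, 5.10 and 5.01 in the ACC trained pools, against 4.72, 4.92 and 4.96 in the ACC control pools. The lowest trained pool was just above the highest control pool, and the difference was 0.16 (adjusted p = 0.791, limma). Dkk4 was dim and had log2 values of 2.42, 2.74 and 2.68 in the ACC trained pools, against 2.71, 2.81 and 2.91 in the ACC control pools. These groups overlapped, with a difference of -0.20 (adjusted p = 0.759, limma). The 3 trained arrays did not overlap the 3 control arrays in 3 of the 38 genes in ACC (11.6% of all probe sets) and in 4 in HC (12.3% of all probe sets), the fourth in HC being Sfrp5, lower in trained pools and dim.

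The difference between the regions in the effect of training (HC minus ACC) had its smallest unadjusted p in Wnt4, at -0.37 (SE 0.14, unadjusted p = 0.0176, adjusted p = 0.452, limma). Its value was -0.51 in batch 1 and -0.10 in batch 2. Wnt8a (0.36), Wnt9b (0.30) and Sfrp1 (-0.36) followed, with adjusted p between 0.455 and 0.523 (limma), and Wnt3, at 0.38, was the fifth with an unadjusted p under 0.05. Sfrp1 had log2 values of 5.37, 5.00 and 5.22 in the HC trained pools, against 5.36, 5.56 and 5.37 in the HC control pools. Sfrp1 had log2 values of 5.58, 5.51 and 5.67 in the ACC trained pools, against 5.32, 5.47 and 5.59 in the ACC control pools. In HC 2 of the 3 trained pools of Sfrp1 lay below all control pools, and in ACC the groups overlapped. In the mean of both regions only Fzd8 had an unadjusted p under 0.05, at 0.14 (unadjusted p = 0.0377, adjusted p = 0.957, limma), and it was dim. Fzd8 and Sfrp5 were named after their values were seen.

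**Figure D4:**
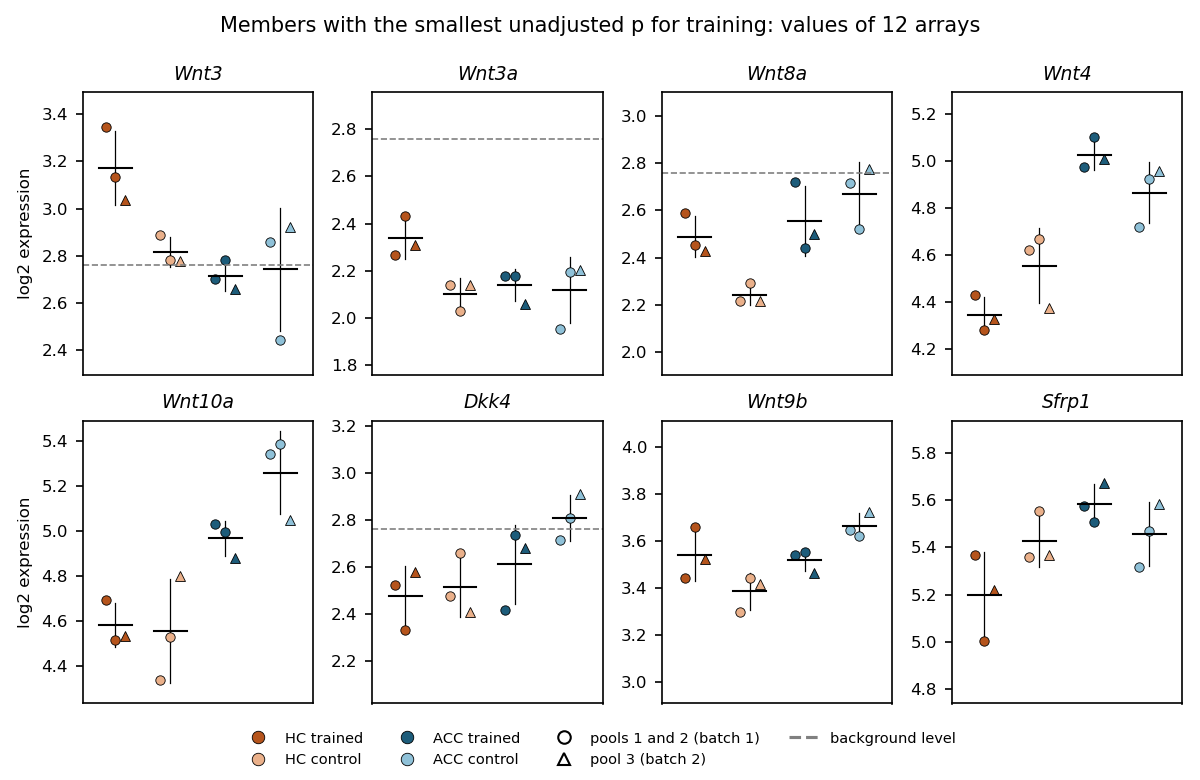
Log2 expression (y axis, scaled for each gene) of the 8 genes with the smallest unadjusted p for training in HC, in ACC or in the difference between them, in the 12 arrays, with HC trained, HC control, ACC trained and ACC control from left to right. Points are pools (triangles are batch 2), bars are means with SD (n = 3), and the dashed line is the background at 2.76. In Wnt4 the trained pools lie low in HC and high in ACC, and Wnt3a lies below background throughout.

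None of the 4 measured sex-linked genes passed the test for training (lowest adjusted p in ACC 0.574, limma), and 3 of them had an unadjusted p under 0.05 in ACC and none in HC. The Y-linked genes Uty, Kdm5d and Eif2s3y had ACC differences (trained minus control) of 1.06, 0.90 and 0.99, and Xist, which is expressed from the inactive X chromosome, had one of -0.78 in the opposite direction. Of the ependymal markers, 2 of 7 had an unadjusted p under 0.05 in ACC and 2 of 7 in HC. The part of the pools' sex mix and of these cells in the ACC values of Wnt10a, Wnt9b and Wnt4 was not tested.

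The rest of the pathway was followed in 78 of 79 listed genes outside the 38, in 8 lists. Between regions 17 of the 78 were higher in HC and 13 lower (limma adjusted p under 0.05, where 9.71% and 8.74% of all probe sets were), and 48 did not pass. Among co-receptors 2 of 8 were higher and 1 lower. Ror1, a receptor for Wnt5a, averaged 4.38 ± 0.18 in HC and 2.97 ± 0.18 in ACC (SD, n = 6 each), a difference of 1.41 (SE 0.09, limma adjusted p = 2.71e-07), beside the 0.20 of Wnt5a. The other Ror receptor, Ror2, had a difference of -0.14 and did not pass (limma adjusted p = 0.448). Ryk, another Wnt receptor, was higher by 0.33 (limma adjusted p = 0.000947), and Kremen2, a partner of Dkk1, was lower by 0.21 (limma adjusted p = 0.0338), while Kremen1 had a difference of 0.15 and did not pass. Lrp5 and Lrp6 had differences of 0.15 and 0.12 that did not pass.

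Of 8 other secreted or surface modulators, 3 were higher in HC and none lower. Sostdc1, an inhibitor of Wnt and BMP signals, averaged 4.46 ± 0.23 in HC and 3.22 ± 0.18 in ACC (SD, n = 6 each), a difference of 1.24 (limma adjusted p = 4.23e-06). Frzb, which is the Sfrp3 protein under another symbol and inhibits neurogenesis when released by dentate neurons, averaged 6.01 ± 0.20 in HC and 5.06 ± 0.26 in ACC (SD, n = 6 each), a difference of 0.95 (limma adjusted p = 4.51e-05). Tspan12, the tetraspanin that works with Fzd4 as a Norrin receptor, was higher by 0.60 (limma adjusted p = 2.01e-05), beside 0.38 for Fzd4 and 0.24 for the Norrin gene Ndp, which did not pass (limma adjusted p = 0.109). Of the 9 R-spondins and their turnover genes, 2 were higher and 1 lower. Rspo1, which strengthens Wnt signals, averaged 4.82 ± 0.33 in HC and 5.82 ± 0.33 in ACC (SD, n = 6 each), a difference of -1.002 (limma adjusted p = 0.000576), while Rspo3 (0.26) and the receptor Lgr4 (0.31) were higher and Rspo4 (-0.17) did not pass. Of 4 genes for secretion and processing, 2 were lower, Wls, which carries Wnts to the surface, by 0.34 (limma adjusted p = 0.00237), and the Wnt protease Trabd2b by 0.38 (limma adjusted p = 0.00583). Porcn (0.12) and Notum (-0.05) did not pass.

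Inside the cell, 3 of 19 genes of the destruction complex and Dishevelled were higher in HC and 5 lower. The Dishevelled-binding genes among them went both ways, with Nkd2 higher by 0.88 (limma adjusted p = 1.93e-05), Dact2 lower by 0.59 (limma adjusted p = 2.42e-05) and Cxxc4 lower by 0.55 (limma adjusted p = 0.000155), and the kinase gene Csnk1e was lower by 0.33. Of 12 TCF and LEF complex genes, 2 were higher and 1 lower, which were Pygo1 (0.53) and Tle1 (0.47), and the corepressor Tle2 (-0.41), while Tcf7l1 (0.30) did not pass. Of 6 target genes, 2 were higher, Ccnd1 by 0.24 (limma adjusted p = 0.00984) and Myc by 0.25 (limma adjusted p = 0.0492), while Axin2, the usual readout of β-catenin signals, had a difference of -0.14 that did not pass (limma adjusted p = 0.0905), and Sp5 one of -0.19. Of 12 planar cell polarity genes, 3 were higher and 3 lower, with Daam2 (0.47), Celsr1 (0.25) and Daam1 (0.22) higher and Celsr3 (-0.37) lower among those named. The calls of Kremen2, Rspo3 and Myc did not hold when single arrays were left out, with adjusted p up to 0.0838, 0.0797 and 0.11 (limma). Kremen2 kept its call only without ACC trained pool 2, HC control pool 2, HC trained pool 2 or HC trained pool 3. Rspo3 kept its call only without ACC control pool 1, ACC trained pool 1, HC control pool 1 or HC trained pool 2. Myc kept its call only without ACC control pool 3 or ACC trained pool 1. Lgr4, Ccnd1, Celsr1 and Celsr3 lost their calls in batch 1 alone, among trained pools and among control pools. Daam1 lost its call in batch 1 alone and among trained pools. Wls and Trabd2b lost theirs among control pools (limma adjusted p = 0.362 and 0.123). Tle2 and Rspo1 lost theirs among trained pools (limma adjusted p = 0.113 and 0.0593). With training none of the 78 had an adjusted p under 0.05 in HC, in ACC or in the difference between regions (limma). An unadjusted p under 0.05 was reached by 5 in HC (6.82% of all probe sets) and 4 in ACC (6.95%). In the difference between regions 6 reached it (8.86%).

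**Figure D5:**
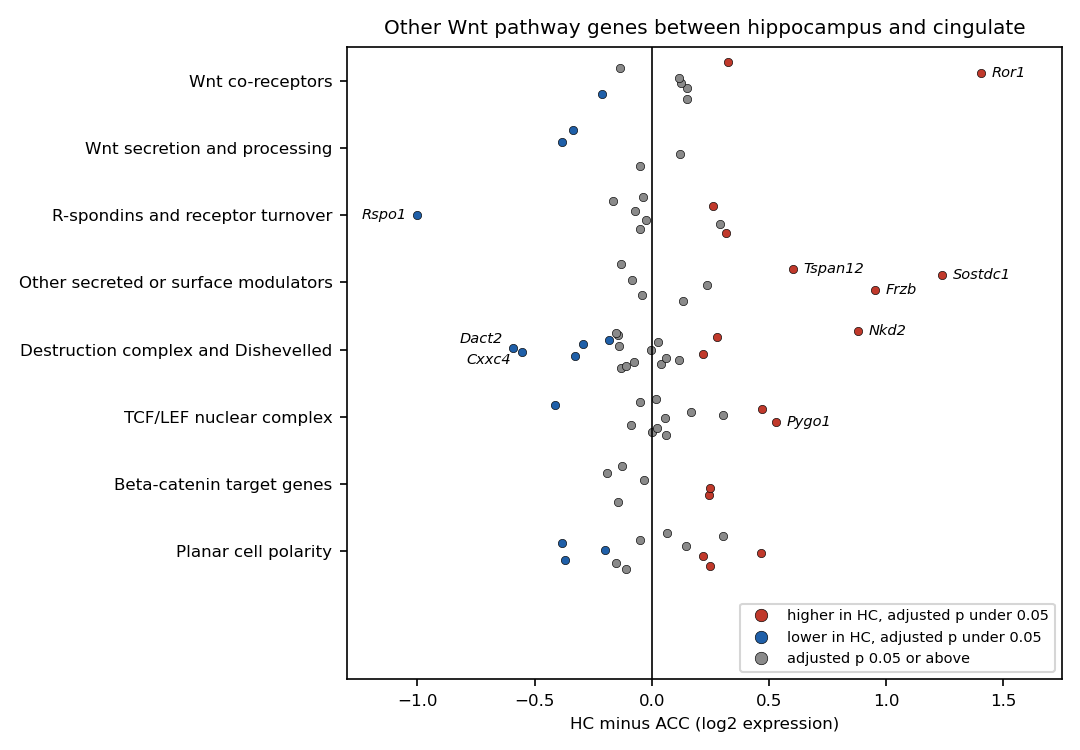
Difference between HC and ACC (HC minus ACC, log2 expression, x axis) for 78 other genes of the pathway in 8 lists (rows). Points are limma estimates for single genes, and colours mark an adjusted p under 0.05, which 17 genes reached as higher in HC and 13 as lower. Ror1 (1.41) and Rspo1 (-1.002) stand at the ends.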

How the data were processed

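Pooled RNA of 12 samples was hybridised to Affymetrix Mouse Gene 2.0 ST arrays, 1 array per pool. The authors made the deposited log2 expression values by Robust Multiarray Average (background correction, quantile normalization and probe summary; affy 1.62.0 under R 3.6.0 with Entrez gene probe sets), for 27381 probe sets, 26794 of them with 1 symbol. The sources used here do not give which arrays entered 1 normalization, whether values were adjusted for batch, or whether the HC and ACC pools share mice. Symbols came from the platform annotation, and all 38 members were found by their symbols. Array medians ran between 3.34 and 3.42. Over all probe sets, arrays of a group correlated at 0.994 to 0.995 and arrays of different groups at 0.986 to 0.995, so that the ranges overlap. Arrays have no sequencing depth, so 3 pools per group limit the precision.

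The 4 group means were fitted in R 4.3.3 by lmFit and eBayes of limma 3.58.1, with no covariate and no filter, and all 12 arrays shared 1 estimate of the spread. Contrasts were HC minus ACC (the mean of trained and control), training in HC, in ACC and in both, and the difference of training between regions. Benjamini-Hochberg adjustment covered all probe sets of a contrast, and the threshold was 0.05. Background was the 95th percentile of odorant and vomeronasal receptor genes. For gaps between related genes, two-sided exact permutation tests went through all splits of the 12 arrays into 6 and 6. Their Benjamini-Hochberg adjustment used scipy 1.17.1. The procedure was tested on simulated data for the region contrast, where it called 42 of 50 genes changed by 0.5 log2 units. The training contrasts were not tested in this way.

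Genes were named by rule. All members called between regions are named with their value in each pool, and also named are the 4 members with the smallest unadjusted p for training in HC, in ACC and in their difference. The 4 genes of each pathway list with the smallest p between regions are named, and others only where a sentence says so. Lrp5, Lrp6, Ror2, Wnt7b, Fzd8 and Sfrp5 are named outside the rule. The members, the 8 pathway lists and the 15 marker lists were chosen with earlier results of these data known. Tcf7 and a few listed markers were not analysed here. Alternatives were batch or pool number as a block, batch 1 alone, arrays of 1 region alone, quantile normalization again and median centring. Further ones were dim probe sets removed, trend and robust variance, array weights, and each array left out in turn. Also counted as alternatives were the region contrasts among trained and among control pools, from the main fit with its shared estimate of the spread. Those pools were not fitted alone, and each such contrast compares fewer arrays than the main one. Promoter windows came from RefSeq (GRCm38.p6), matched by symbol. Arrays of blood and human samples were not used here.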

Additional observations from a re-analysis of the deposited data

How the results depend on the processing

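The count of genes lower in HC, 9 in the report, was 6 to 10 under the alternatives, and not always of the same genes. The contrast among trained pools lost Dkk1, Wnt8a and Wnt10a from it and gained Sfrp1. The contrast among control pools lost Dkk1, Fzd1 and Wnt4 and gained Wnt9b. The count higher in HC, 5 in the report, was 3 with trend and robust variance, 2 among trained pools, 1 among control pools and 0 in batch 1 alone, and 3 to 5 with single arrays left out. From the higher genes, the contrast among trained pools lost Fzd4, Fzd7 and Wnt5a, and that among control pools lost Fzd7, Wnt3, Wnt5a and Wnt7a. Quantile normalization again and median centring each added Fzd8 to them. Quantile normalization again and the removal of dim probe sets each added Sfrp1 to the lower genes. Deviations of same-numbered pools correlated between -0.27 and 0.03 for trained with control pools and between -0.24 and -0.01 for HC with ACC. With 3 pools per group these correlations cannot show whether pool numbers pair the samples. With the pool number as a block 3 genes were higher and 8 lower, without Dkk1 (adjusted p = 0.0551, limma), Wnt3 (0.0563) and Wnt5a (0.0541). Batch as a block lost Dkk1 and Wnt3, trend and robust variance Dkk1, Wnt3 and Wnt5a, array weights Wnt3, quantile normalization again Dkk1 and Wnt8a, and median centring Dkk1. Batch 1 alone, with 2 arrays per group, kept 6 of the 14 calls. Training gave 0 calls under every alternative.

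Direction turned in no gene called between regions. It turned in genes whose difference in the report did not pass and was at most 0.24 in size (Ndp). Among control pools they were Dkk2 (-0.0344), Fzd9 (-0.00773), Sfrp4 (-0.0525), Wnt3a (-0.0143) and Sfrp5 (0.12), and among trained pools Fzd10 (-0.053), Wnt9b (0.0208), Wnt11 (-0.0461) and Ndp (-0.0384). In batch 1 they were Fzd10 (-0.0145), Sfrp5 (0.0398) and Wnt5b (0.0891). Quantile normalization again turned Sfrp5 (0.0479), Wnt5b (0.0205) and Wnt7b (-0.0329), and median centring Sfrp5 (0.018) and Wnt5b (0.0149). With single arrays left out the values ran between -0.0443 and 0.0962 for Dkk2, -0.0274 and 0.0873 for Fzd9, -0.00144 and 0.0631 for Fzd10, -0.0901 and 0.00804 for Sfrp2, -0.0319 and 0.0253 for Sfrp5, -0.0744 and 0.0394 for Wnt5b, and -0.0153 and 0.0378 for Wnt7b. The cause was not tested. Signal near background limits the 12 dim genes.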
